A study of Mus musculus with 36 samples.

Results

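Day 21 of cardiac reprogramming was compared with day 2 for chromatin accessibility along part of the mouse genome. This is the widest interval sampled for cells given both factors and inhibitors. Counts covered chromosomes 1, 10 to 16 and 17 up to 79.1 Mb, and all ranks below are within them. The comparison rests on 6 of the 36 samples in the labels, 3 libraries at day 21 and 3 at day 2, chosen by the label of day and treatment. All were made by ATAC-seq, in which a transposase cuts open DNA and inserts sequencing adapters, so that reads pile up where chromatin is accessible. The starting cells came from explanted hearts of neonatal CD-1 mice that carry an alpha-MHC-GFP reporter, a transgene that makes green fluorescent protein under a cardiac myosin promoter. They were Thy1+ and GFP-, which are largely fibroblasts. Both groups carried retroviral Gata4, Mef2c and Tbx5 (GMT) and were given 2 small molecules, sb431542, which blocks TGF-beta receptors, and xav939, which dampens Wnt signals. Both were sorted for GFP at harvest, so the comparison holds the factors, the inhibitors and the sort in common and differs in time. Cells that did not make GFP are in neither group. Libraries of the same GMT cells at days 3, 7 and 14, and of day 7 cells with dsRed retrovirus and no inhibitor, sorted for dsRed and called fibroblasts here, are used for description only. Each of these groups had 3 libraries.

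Gata4, Mef2c and Tbx5 are DNA-binding proteins of the developing heart that together can turn fibroblasts into cells with features of cardiomyocytes, called induced cardiomyocytes. The conversion is known to involve opening of chromatin at muscle genes and loss of accessibility at regions used by the starting cell, and both inhibitors are known to raise its yield. Retroviral vectors of this kind insert copies of the delivered genes into the genome. Sequence read from such copies cannot be told apart from the cell's own gene when it is mapped.

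Library totals were 7.55, 5.16 and 21.4 M counts at day 21, against 2.29, 10.1 and 5.92 M at day 2. A single region of chromosome 1 took 5.35, 6.4 and 20.8% of the counts at day 21 and 10.2, 4.52 and 35.4% at day 2, and levels below are CPM, counts scaled to a common library size, with such regions trimmed from the scaling. On the first principal component of these 6 libraries, which held 42% of the variance, the day 21 libraries lay together between 75.9 and 91.2. The day 2 libraries lay at 31.3 and 22.4, with replicate 1, the shallowest, far off at -301. Replicate 3 of day 2 stood apart on the second component (26% of the variance) at -222, the others between -39.8 and 92.4. The day 2 group was therefore the more scattered one. Numbers of calls, their directions and the fold changes of peaks named by rule were also computed leaving out single libraries. Runs of peaks, largest steps, the place of fibroblasts between the days and adjacent peaks were read with all libraries only. Per the labels, replicates are biological and sequencing was split over 2 cores. No label ties a library to its core, so the part of the core was not tested.

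Accessibility changed at 2090 of 144810 tested peaks (1.44%), with 829 higher (0.572%) and 1261 lower (0.871%) at day 21. A peak was called changed when its adjusted p in edgeR's quasi-likelihood test was under 0.05 over all tested peaks. Peaks that rose had a median log2 fold change of 1.53 (quartiles 1.30 and 1.82), and 134 of them rose at least 4-fold. Peaks that fell had a median of -1.45 (quartiles -1.73 and -1.25), with 166 down at least 4-fold, while the median over all tested peaks was 0.02. In bulk cells, a smaller share of cells with an open region and a less open region per cell cannot be told apart. The number of calls moved with single libraries. It was 581 without replicate 3 of day 2, 1091 without its replicate 2 and 1666 without its replicate 1, and 608, 1157 and 745 without replicates 1, 2 and 3 of day 21. Rises were 39.7% of the calls, but 56.7 and 50.7% without replicates 1 and 2 of day 21, so the direction with more calls depended on those libraries.

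All 3 day 21 libraries lay above all 3 day 2 libraries at 809 of the 829 peaks that rose, against 9.73% of all tested peaks. At 1201 of the 1261 that fell they lay below, against 9.25% of all tested. Since the calls were made on the same libraries, these counts describe the calls and add no test. Over the peaks that rose, the median level was 5.57, 5.23 and 5.9 CPM in the day 21 libraries, against 1.92, 2.0 and 1.83 CPM at day 2. Over those that fell it was 1.89, 2.15 and 2.21 CPM at day 21, against 5.76, 5.54 and 5.91 CPM at day 2. Over all tested peaks the group medians stayed between 1.39 and 1.5 CPM at every day and in fibroblasts.

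Changed peaks were found on every chromosome in the table, from 1.19% of the tested peaks of chromosome 10 to 1.7% of those of chromosome 11. They were somewhat wider than other peaks, with medians of 1736 bases for rises and 1555 bases for falls, against 1490 bases over all tested. Calls were rare where counts were low. In the lowest quartile of average level, 0.0525% of peaks rose and 0.0912% fell, and in the highest quartile 1.39% rose and 1.88% fell.

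The timing of the change was read from the 9 libraries of days 3, 7 and 14. They are not in the contrast of day 21 with day 2, but enter the joint fit of 18 libraries that called the peaks. The day 2 and day 21 levels that frame them are those the peaks were called on. The shares of change below are therefore descriptions and carry no test. Fitted on the 6 libraries of days 21 and 2 alone, 2627 peaks were called, of which 1932 were among the 2090. Peaks that rose had median levels of 1.94 CPM at day 2, 2.97 at day 3, 4.58 at day 7, 5.17 at day 14 and 5.71 at day 21, as medians of the group means. For peaks that fell the values were 5.88, 4.61, 3.08, 2.27 and 2.11 CPM on the same days. Set on a log2 scale between the day 2 and day 21 levels, the median peak that rose had gone 36.7 ± 12.1% of the way at day 3, 79.3 ± 8.56% at day 7 and 87.3 ± 8.2% at day 14. The median peak that fell had gone 26.1 ± 12.3%, 62.1 ± 8.59% and 93.0 ± 1.86% of the way (SD over 3 libraries each). The ranges of the libraries of rises and falls overlapped at days 3 and 14. At day 7 they touched, with 70.7 to 87.0% for rises and 55.8 to 70.7% for falls, and the difference was not tested. With library totals alone as the scaling, 178 rises and 325 falls were called, 498 of these 503 among the 2090. Over those peaks, the order at day 7 turned, to 59.7% for rises and 80.4% for falls. Scaling and peaks both differ there, and the part of each was not tested.

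The interval with the largest step was then counted for each peak. Steps were taken by absolute size in mean log2 CPM, so a step against the direction of the peak's change can be the largest. Steps and order use the day 2 and day 21 means, on which the peaks were called. The counts therefore describe the calls, and setting them beside the shares over all tested peaks is no test. Of the peaks that rose, 311 (37.5%) had their largest step between days 2 and 3 and 432 (52.1%) between days 3 and 7. The later intervals, days 7 to 14 and days 14 to 21, held 49 (5.91%) and 37 (4.46%) of them. Among all tested peaks with a higher level at day 21, called or not, the shares were 27.5, 32.4, 23.6 and 16.5%. Of the peaks that fell, 246 (19.5%) had their largest step between days 2 and 3, 482 (38.2%) between days 3 and 7, 442 (35.1%) between days 7 and 14 and 91 (7.22%) between days 14 and 21. Among all tested peaks lower at day 21 they were 23.3, 26.3, 30.6 and 19.7%. The group means moved in one direction through all 5 days at 318 peaks that rose (38.4%) and 499 that fell (39.6%), against 4.19 and 4.36% of all tested peaks with the same direction.

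**Figure D1:**
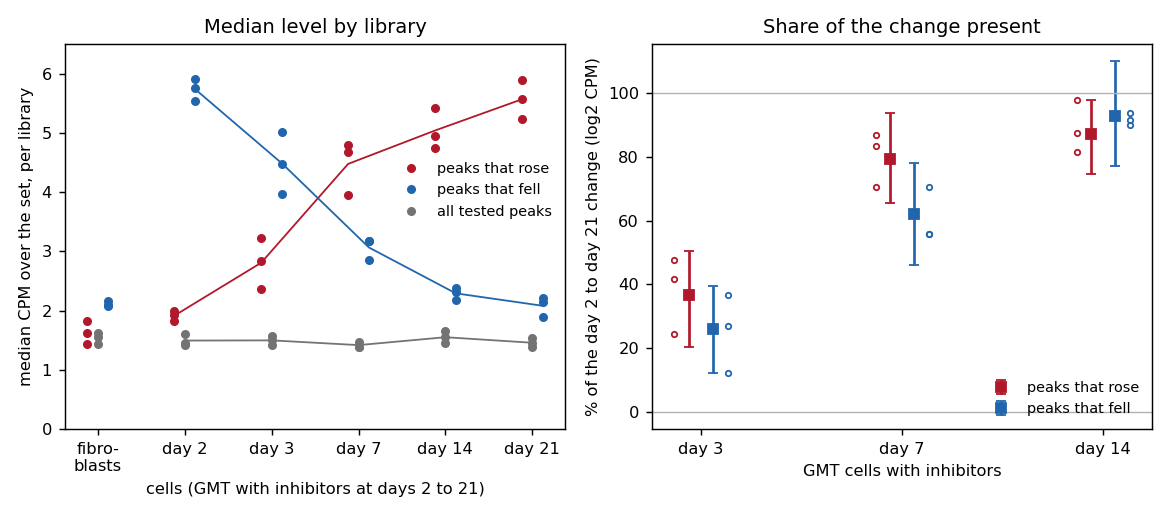
Left, median CPM over the peaks that rose between day 2 and day 21 (red), those that fell (blue) and all tested peaks (grey), with a point per library and lines through the means of the GMT libraries. Right, share of the day 2 to day 21 change in log2 CPM present at days 3, 7 and 14, with squares at the median over peaks, bars at the quartiles and open circles for the 3 libraries. Peaks that rose reached a median of 79.3% and peaks that fell one of 62.1% at day 7, and the grey points stay level. That order turned over the 503 peaks called with library totals alone as the scaling.

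The same peaks were then read in day 14 against day 3, a contrast of other libraries taken from the same joint fit, whose filter and spread rest on all 18. It called 431 peaks in all (0.298%), 145 higher (0.1%) and 286 lower (0.198%) at day 14. That count fell to 24 with the 6 libraries of days 14 and 3 fitted alone. It was 16 without replicate 1 of day 14, 269 without its replicate 3, and 233 and 90 without replicates 2 and 3 of day 3. Of the 829 peaks that rose from day 2 to day 21, 814 (98.2%) were also higher at day 14 than at day 3, against 52.3% of all tested peaks. Of the 1261 that fell, 1247 (98.9%) were also lower, against 47.7% of all tested. At an unadjusted p under 0.05, 531 of the rises (64.1%) and 941 of the falls (74.6%) passed in the same direction, against 4.96 and 5.92% of all tested peaks. The shares over all tested peaks are not matched for level. The median of the average log2 CPM was 2.05 for rises and 1.87 for falls, against 0.74 over all tested. After adjustment over all peaks, 69 rises and 162 falls were called in the same direction, and 0 in the opposite one. Those 69 are 47.6% of the 145 peaks called higher at day 14, and the 162 are 56.6% of the 286 called lower. With each contrast fitted on its own 6 libraries, the share of day 21 against day 2 calls with the same direction was 98.3%. The changes were smaller over this shorter interval, with medians of 0.80 for the rises and -0.97 for the falls on the log2 scale, against 0.03 over all tested peaks.

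**Figure D2:**
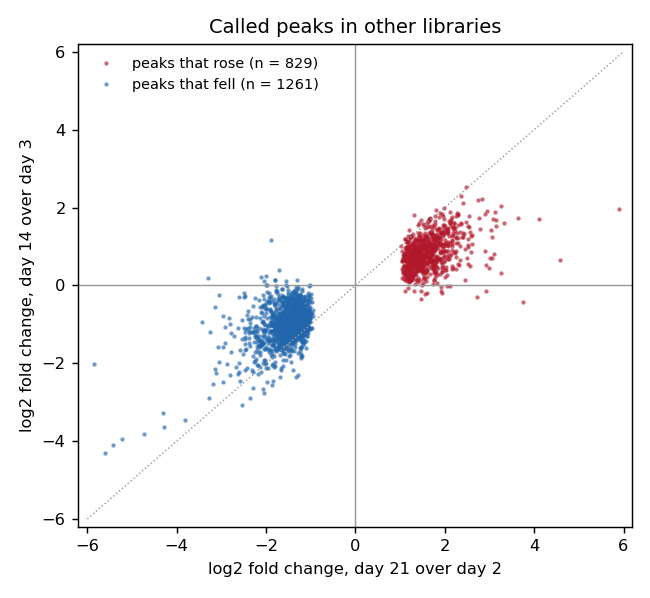
Log2 fold change of day 14 over day 3 (vertical) against that of day 21 over day 2 (horizontal) for the 829 peaks that rose (red) and the 1261 that fell (blue), each point a peak and the dotted line marking equality. The 2 axes contrast different libraries in 1 joint fit, and 814 and 1247 points lie in the quadrants of the same direction.

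A handful of points in that plot lie beyond the peaks named below, at low levels. The largest fitted rise, 5.90 ± 1.56 (SE) on the log2 scale with an adjusted p of 0.0321, was at chr17 33743820-33744741. Its levels were 1.11, 0.923 and 0.432 CPM at day 21 and 0 in all 3 day 2 libraries, so its size depends on edgeR's shrinkage and is no bound. A rise at chr1 53136196-53137486 (log2 fold change 3.76 ± 0.80, adjusted p 0.00458) went the other way from day 3 to day 14, with a log2 fold change of -0.43. It had 1.89, 1.23 and 1.3 CPM at day 21, against 0.32, 0.077 and 0 CPM at day 2, and 1.92, 2.31 and 3.6 CPM in fibroblasts. The largest fitted fall, at chr1 172871947-172872347 (log2 fold change -5.86 ± 1.14, adjusted p 0.016), was also outside the naming rule. It had 0, 0.154 and 0.096 CPM at day 21, against 0.32, 10.6 and 3.06 CPM at day 2, where the libraries were far apart. All of these were picked out after their values were seen.

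The fibroblast libraries were set beside both days at the changed peaks. Fibroblasts received neither factors nor inhibitors and were sorted by another marker, so they join several differences. At peaks that rose, fibroblasts had a median level of 1.64 CPM, close to the 1.94 CPM of day 2 and under the 5.71 CPM of day 21. Their mean was below both days at 409 of the 829 peaks (49.3%), between them at 380 (45.8%) and above both at 40 (4.83%). At peaks that fell, fibroblasts had a median of 2.21 CPM, near the 2.11 CPM of day 21 and not the 5.88 CPM of day 2. Over the 178 rises and 325 falls called with library totals alone as the scaling, the fibroblast median was 1.07 CPM and 1.12 CPM. Medians of days 2 and 21 were not computed under that scaling, so these values cannot be set beside those above. A single region of chromosome 1 took 49.4, 49.3 and 14.5% of the fibroblast counts. The fibroblast mean was nearer to day 21 than to day 2 at 859 of the 1261 falls (68.1%), and at 171 of the 829 rises (20.6%). At 606 falls (48.1%) it was below both days, at 468 (37.1%) between them and at 187 (14.8%) above both. Among all tested peaks lower at day 21, called or not, fibroblasts were below both days at 46.1%, between them at 17.2% and above both at 36.7%, and nearer to day 21 at 54.9%. Among those higher at day 21 the shares were 39.1, 23.6 and 37.4%, with 49.5% nearer to day 21. Since falls were called for high day 2 values and rises for low ones, these counts describe the calls and carry no test.

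Gene names for peaks are given only for 5 loci whose place in build mm9 is well known. They come from general knowledge and not from an annotation, and positions are those of the deposited table. The largest rises by the naming rule, which takes called peaks with no overlap between the groups and an average log2 CPM of at least 1, lay side by side at Myh6. Myh6 encodes the alpha cardiac myosin heavy chain, a motor protein of the heart's sarcomere, and its promoter also drives the GFP reporter on which the cells were sorted. Reads from the reporter's promoter and from the gene's own promoter cannot be told apart. Whether any of the called peaks overlaps that promoter was not established.

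The first of these peaks, chr14 55571939-55574039, had 6.13, 8.31 and 9.93 CPM at day 21, against 0.64, 0.77 and 1.02 CPM at day 2. No library of one day came near those of the other. Its log2 fold change was 3.32 ± 0.40 (SE), with an adjusted p of 1.14e-07. The peak at chr14 55578284-55580442 had 10.3, 8.16 and 14.1 CPM at day 21, against 1.6, 1.77 and 1.02 CPM at day 2, a log2 fold change of 2.84 ± 0.34 with an adjusted p of 8.1e-08. This one was also called from day 3 to day 14, with a log2 fold change of 2.21 and an adjusted p of 4.05e-05, from the joint fit. Between them, chr14 55575169-55576060 had 3.79, 3.85 and 5.47 CPM at day 21, against 0, 0.693 and 0.407 CPM at day 2. Beside them, chr14 55568703-55569958 had 4.12, 4.46 and 7.25 CPM at day 21, against 0.64, 0.847 and 0.407 CPM at day 2.

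These 4 belong to a run of 12 rises among the 34 tested peaks of 1 window of 100000 bases, chr14 55500001 onward, the window with the most rises of 10648. The run spans chr14 55555113-55580442, and log2 fold changes in it lay between 2.19 and 4.59. Summed over the 12 peaks, the level was 77.0, 95.6 and 134 CPM at day 21, against 13.8, 23.7 and 14.1 CPM at day 2. Over these 12 called peaks, the day 2 sums overlapped those of fibroblasts, at 19.0, 18.3 and 16.9 CPM. Over all 34 tested peaks of the window the sums were 472, 380 and 589 CPM at day 21, against 193, 287 and 306 CPM at day 2. Fibroblasts there had 164, 174 and 163 CPM, below every day 2 library. The sum over the 12 averaged 17.2 CPM at day 2, 19.2 at day 3, 46.7 at day 7 and 102 at day 21, and the day 14 libraries lay between 41.8 and 81.6 CPM. The window was chosen for its calls and so carries no test of its own.

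A second run of rises lay at Actn2, which encodes the alpha-actinin that anchors actin filaments at the sarcomere's Z-disc. Its 2 neighbouring windows on chromosome 13 held 9 rises among 23 tested peaks and 5 among 26. Over the 9 peaks at chr13 12408010-12468183, the summed level was 56.1, 73.9 and 107 CPM at day 21, against 19.5, 26.3 and 29.1 CPM at day 2. The groups did not overlap, but the 9 peaks were called on these libraries, so the gap describes the calls and carries no test. Replicate 3 of day 21 was the highest, as at Myh6. The largest change among the 9 was at chr13 12410295-12410699, with 0.892, 2.77 and 1.92 CPM at day 21, against 0, 0.154 and 0 CPM at day 2. In fibroblasts, the 9 peaks summed to 15.3, 17.1 and 18.7 CPM. All 23 tested peaks of that window had 208, 219 and 305 CPM at day 21, against 141, 149 and 181 CPM at day 2.

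The third run, at Igfbp5 and Igfbp2 on chromosome 1, was of another kind of gene. Both encode secreted proteins that bind insulin-like growth factors, made by many cell types. The window from chr1 72900001 held 7 rises among 25 tested peaks, with log2 fold changes of 1.16 to 2.75. Their sum was 125, 102 and 105 CPM at day 21, against 23.7, 46.0 and 28.7 CPM at day 2 and 35.2, 36.8 and 32.8 CPM in fibroblasts. All 25 tested peaks together had 213, 172 and 187 CPM at day 21, against 96.0, 97.1 and 82.1 CPM at day 2. That sum contains the 7 called rises, so it does not show that the rest of the window rose. This window too was chosen for its calls and carries no test.

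For reference, the promoters that RefSeq gives for 1 gene of each run are shown, each a window of 300 bases around the annotated start in GRCm38.p6, a later build than that of the peaks. Whether a called peak covers them was not established across builds. Capitals mark matches to CANNTG (the E-box read by many muscle regulators, whose reverse complement is the same motif) and to TATAAA (the TATA box, searched on both strands). All 3 lie on the minus strand and read 5′ to 3′, at chr14:54966558-54966857, chr13:12340683-12340982 and chr1:72874816-72875115.
Myh6: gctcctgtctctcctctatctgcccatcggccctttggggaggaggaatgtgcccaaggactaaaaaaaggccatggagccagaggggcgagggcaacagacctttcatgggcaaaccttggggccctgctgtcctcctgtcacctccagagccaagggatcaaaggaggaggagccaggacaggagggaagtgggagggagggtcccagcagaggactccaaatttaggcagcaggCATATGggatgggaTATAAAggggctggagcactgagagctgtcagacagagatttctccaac
Actn2: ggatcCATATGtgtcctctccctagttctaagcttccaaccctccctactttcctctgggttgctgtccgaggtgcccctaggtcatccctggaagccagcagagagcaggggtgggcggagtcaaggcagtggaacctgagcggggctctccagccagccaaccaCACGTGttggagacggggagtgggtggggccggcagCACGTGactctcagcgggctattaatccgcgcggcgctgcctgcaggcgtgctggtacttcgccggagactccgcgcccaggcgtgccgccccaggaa
Igfbp5: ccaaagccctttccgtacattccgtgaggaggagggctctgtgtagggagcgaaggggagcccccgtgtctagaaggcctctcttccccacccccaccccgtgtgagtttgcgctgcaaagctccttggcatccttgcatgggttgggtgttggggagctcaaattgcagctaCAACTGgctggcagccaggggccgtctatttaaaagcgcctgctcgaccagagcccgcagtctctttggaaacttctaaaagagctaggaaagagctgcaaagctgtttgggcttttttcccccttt
Of 32851 promoters in the table, 72.3% hold CANNTG and 13.6% TATAAA, so the matches shown are common ones. The letters AGATAA, CTAAAAATA and AGGTGT, forms of the GATA, MEF2 and T-box motifs, were also searched on both strands and are not in these 3 windows. They are found in 11.2, 0.517 and 13.7% of all promoters.

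Outside these loci, the named rises were single peaks. At chr17 29559699-29560736, the level was 10.7, 10.5 and 10.2 CPM at day 21, against 2.56, 2.16 and 1.02 CPM at day 2 (log2 fold change 2.44 ± 0.34, adjusted p 6.81e-06). Fibroblasts were listed at 0.274, 0 and 0 CPM there, so day 2 already stood above them. The strongest signal was at chr12 105491235-105495600, with 25.3, 62.5 and 39.1 CPM at day 21, against 4.16, 8.78 and 7.95 CPM at day 2. That peak was also open in fibroblasts, at 19.8, 17.6 and 50.4 CPM. Its adjusted p was 0.00057, and 0.123 without replicate 1 of days 2 and 3. The other named rises were at chr16 4876012-4876212, chr13 91388916-91390676, chr10 80898095-80898695 and chr11 81593239-81595300, with log2 fold changes of 2.42 to 2.56.

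**Figure D3:**
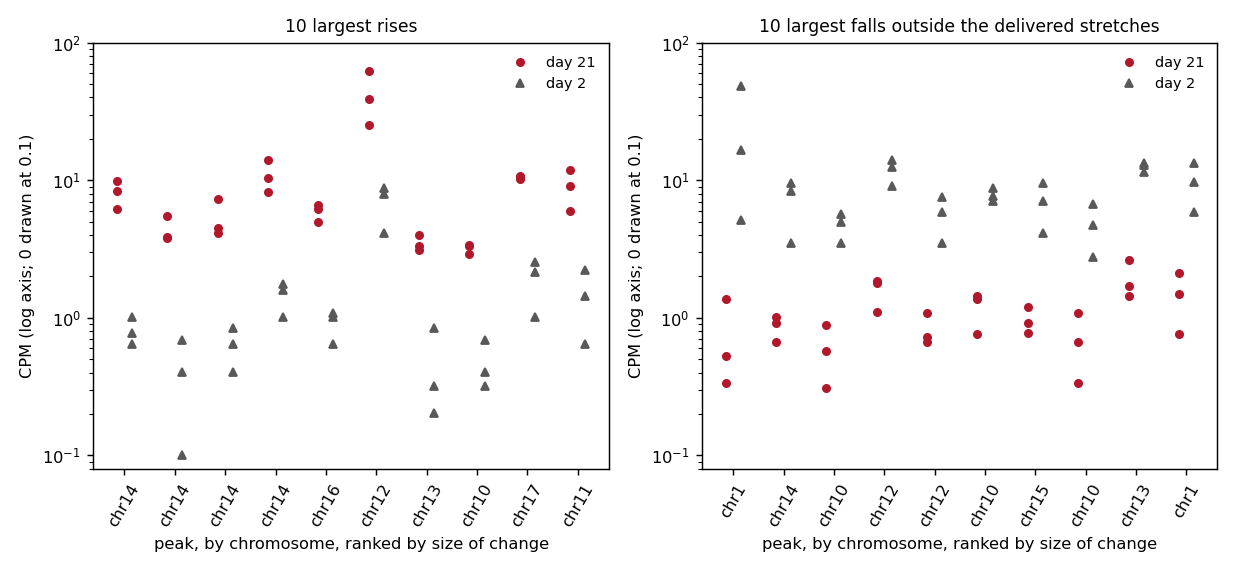
Level in CPM on a log axis of the 10 largest rises by the naming rule (left) and of the 10 largest falls outside the stretches at Mef2c and Gata4 (right), with a circle per day 21 library and a triangle per day 2 library. A level of 0 is drawn at 0.1. The naming rule admits only peaks without overlap between the groups, so the gap between circles and triangles in all 20 peaks follows from the selection.

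The largest falls by the naming rule were at the genes of 2 of the delivered factors. Mef2c encodes a MADS-box activator of muscle genes, and 7 of the 39 tested peaks of its stretch fell more than 4-fold, at chr13 83730819-83802523. Their sum was 22.7, 25.5 and 26.7 CPM at day 21, against 343, 644 and 319 CPM at day 2. The level averaged 15.4 CPM in fibroblasts, 435 at day 2, 247 at day 3, 48.8 at day 7, 28.1 at day 14 and 25.0 at day 21. At the other 32 tested peaks of the same stretch the sums were 116 ± 17.4 CPM at day 21 and 117 ± 11.5 CPM at day 2 (SD, n = 3 each). Those sums overlapped between the days.

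The peak of this stretch with the largest fall, chr13 83772366-83773128, had 1.11, 1.38 and 1.49 CPM at day 21, against 42.3, 109 and 46.2 CPM at day 2. Day 2 was 49.5-fold higher in the means, and the log2 fold change was -5.61 ± 0.46 with an adjusted p of 3.95e-11. It was also called from day 3 to day 14, with -4.29 on the log2 scale and an adjusted p of 1.6e-07.

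Gata4, which encodes a zinc-finger protein of early heart formation, had 4 called falls among 50 tested peaks, 2 of them more than 4-fold. These 2, at chr14 63819108-63822711, summed to 15.5, 13.5 and 15.8 CPM at day 21, against 105, 229 and 140 CPM at day 2. They averaged 3.18 CPM in fibroblasts. The other 48 tested peaks, which include the remaining called falls, summed to 404 ± 43.3 CPM at day 21 and 623 ± 241 CPM at day 2. That difference in the sum was within the spread of the day 2 libraries. Reads from a vector's copy of Mef2c or Gata4 and reads from the gene itself cannot be told apart in these counts. The Tbx5 gene was not analysed here.

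Of the 10 largest falls by the naming rule, 8 lay in these 2 stretches. A further list of 10 outside them was drawn up after the values were seen. It is led by chr1 173411591-173411987, with 0.334, 1.38 and 0.528 CPM at day 21, against 5.12, 48.7 and 16.5 CPM at day 2. The day 2 libraries were far apart there, and the adjusted p of 0.0129 became 0.114, 0.0529 and 0.0949 without replicates 1, 2 and 3 of day 21 and 0.0509 without replicate 3 of day 2. A steadier fall was at chr13 59561907-59563751, with 1.45, 1.69 and 2.64 CPM at day 21, against 11.5, 12.8 and 13.4 CPM at day 2 (log2 fold change -2.62 ± 0.31, adjusted p 4.16e-08). The peak at chr14 25282147-25283961 had 0.669, 0.923 and 1.01 CPM at day 21, against 3.52, 9.62 and 8.35 CPM at day 2. The others, at chr10 111107283, 92805468 and 77078568, chr12 17009526 and 17013480, chr15 25490474 and chr1 155010548, had log2 fold changes of -2.97 to -2.60.

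Falls also came in runs away from the delivered genes. The window from chr12 17000001 held 9 falls among 34 tested peaks, all within chr12 17001008-17016595. Their sum was 12.1, 12.3 and 12.5 CPM at day 21, against 42.9, 44.7 and 59.7 CPM at day 2. Fibroblasts stood at 9.49, 10.4 and 7.57 CPM, below every library of both days. All 34 tested peaks of the window had 136, 123 and 158 CPM at day 21, against 172, 201 and 256 CPM at day 2 and 103, 107 and 105 CPM in fibroblasts. Over the 9 called peaks, the mean was still 30.0 ± 11.3 CPM at day 7 and had reached 13.4 ± 2.3 CPM at day 14 (SD, n = 3 each).

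A different course was seen in 3 windows of chromosome 13, from 21300001, 22000001 and 23500001, with 6, 9 and 5 falls among 19, 20 and 24 tested peaks. In the window with 9, the sum was 16.4, 31.2 and 20.3 CPM at day 21, against 98.9, 86.1 and 79.5 CPM at day 2. Here fibroblasts were open too, at 69.6, 67.8 and 71.3 CPM. The mean was 88.2 CPM at day 2, 55.5 at day 3, 29.2 at day 7, 24.4 at day 14 and 22.6 at day 21. In the other 2 windows, the called falls summed to 15.7 and 35.0 CPM at day 21, against 43.1 and 98.8 CPM at day 2 and 41.8 and 101 CPM in fibroblasts, as means. Over the called peaks, day 2 thus stood near the fibroblast level in these 2 windows and above it in the one with 9 falls. That excess was not seen over all 20 tested peaks of the window with 9 falls. Their sums were 214, 211 and 211 CPM at day 2 and 202, 206 and 225 CPM in fibroblasts, which overlap. At day 21 they were 108, 144 and 131 CPM.

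**Figure D4:**
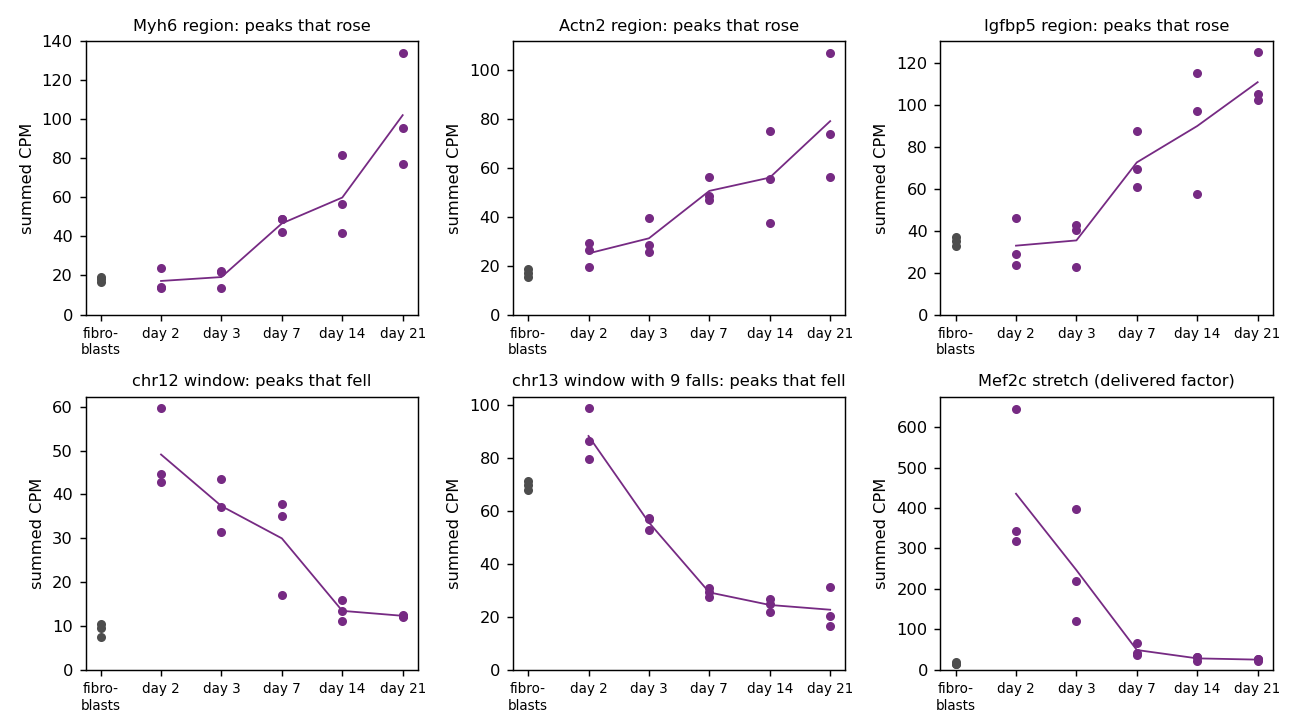
Summed CPM over the called peaks of 5 windows of 100000 bases and over the 7 peaks of the Mef2c stretch that fell more than 4-fold, a point per library and lines through the means of the GMT groups, with fibroblasts in dark grey. The top row is higher at day 21 than at day 2 at 3 loci and the bottom row lower, with fibroblasts low on the chromosome 12 and Mef2c panels and high on the chromosome 13 panel.

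Adjacent tested peaks were compared last. Of the rises, 78 (9.41%) had another rise as the adjacent tested peak, against 1.12% of all tested peaks with a rise beside them. Of the falls, 121 (9.6%) had a fall beside them, against 1.7% of all tested. A rise beside a fall was found at 5 peaks of each kind. Among the windows, 24 held at least 3 rises and 43 at least 3 falls, and none of the leading windows described here held calls in both directions.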

How the data were processed

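Values in the deposited file are raw read counts, whole numbers for each region of build mm9. The submitters' processing notes name Bowtie2, Picard, MACS2 and edgeR without versions. Treatment of duplicates and pooling for the peak calls are not stated in the labels. The table ends in an incomplete line. Its 1393120 complete regions lie on chromosomes 1, 10 to 16 and 17 up to 79.1 Mb, and 18 libraries have a column.

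Library sizes were scaled by TMM, and filterByExpr (minimum count 10, minimum total 15) kept 144810 peaks (10.4% of regions, 79.2% of counts). All 18 libraries entered 1 edgeR fit with a mean per group (edgeR 4.0.16, R 4.3.3, glmQLFit robust, 12 residual degrees of freedom), tested two-sided with glmQLFTest and Benjamini-Hochberg adjustment. The code was tested on simulated data. Replicate pairs differed beyond sampling noise (chi-square over its degrees of freedom 2.53 to 29.1).

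Alternatives were another scaling, filter, threshold, choice of libraries, a replicate block, DESeq2 1.42.0 and leaving out each library. Named peaks are the 10 largest rises and falls among called peaks with no overlap between the groups and an average log2 CPM of at least 1. Gene lists and cell type markers were not run, since no mm9 annotation was used. Positions are printed as deposited. The comparison, lists and rules were chosen with earlier results of these data known.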

Additional observations from a re-analysis of the deposited data

How the results depend on the processing

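The 28 peaks named kept their direction under every alternative that gave them a value. One, chr13 91388916, was not tested at a minimum count of 30. Of their values under the alternatives, 438 stayed on the same side of the threshold and 9 lost the call, 5 of them at chr1 173411591 and 3 without a filter on low counts. The count of 2090 calls became 652 at an adjusted p under 0.01, 503 with library totals alone, 53 with no filter on low counts, 2173 with RLE size factors, 1833 with DESeq2 and 2878 without replicate 1 of days 2 and 3. Leaving out each library gave 581 to 1666. The cause was not tested.

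The share of rises among the calls, 39.7%, was 37.4% with RLE size factors, 35.4% with library totals alone, 33.8% with a minimum count of 30, 33.9% with the 6 libraries alone, 42.6% without replicate 1 of days 2 and 3, 36.7% with DESeq2, 47.2% with no filter, and 34 to 56.7% leaving out each library. The share of calls with the same direction from day 3 to day 14, 98.6%, was 99.7% at an adjusted p under 0.01, 99.2% with library totals alone, 95.8% without replicate 1 of days 2 and 3, 99.5% with DESeq2, 100% with no filter, and 96.3 to 99.3% leaving out each library.

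The 431 calls of day 14 against day 3 became 67 at an adjusted p under 0.01, 55 with library totals alone, 256 with the 15 GMT libraries alone, 24 with the 6 libraries alone, 803 without replicate 1 of days 2 and 3 and 19 with no filter. Leaving out each library gave 16 (without day 14 replicate 1) to 418, and replicates 2 and 3 of day 3 and replicate 3 of day 14 were the others that moved it most, to 233, 90 and 269.

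Shares and fibroblast medians under an alternative were read over the peaks that alternative called, 178 rises and 325 falls with library totals alone. The share of change present at day 3 for rises was 49.5% without replicate 1 of days 2 and 3. With library totals alone, the day 7 shares were 59.7% for rises and 80.4% for falls, which turns their order, and the day 14 share for falls was 96.1%, or 97.7% without replicate 1 of days 2 and 3. The fibroblast median was 1.07 CPM for rises and 1.12 CPM for falls with library totals alone, and for falls 2.29 CPM with RLE size factors and 2.33 CPM without replicate 1 of days 2 and 3. Windows with at least 3 falls numbered 27 at 50000 bases, against 43.

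Same-numbered libraries did not deviate together (correlations of -0.0219, -0.0483 and 0.00628 between days 21 and 2). With 3 libraries per group this cannot exclude a shared culture, and no label says that a number marks one. The fit with the replicate block gave 1716 calls for day 21 against day 2 and 227 for day 14 against day 3. The gene lists and their assignment distance were not run. The median log2 change of all peaks was 0.02, 0.19 with no filter and between -0.01 and 0.05 under the other alternatives.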

Other observations

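Further windows held several called peaks that the text has not described. On chromosome 1, the window from 135100001 held 7 rises among 24 tested peaks, summing to 61.3, 38.8 and 68.0 CPM at day 21, against 20.8, 24.0 and 14.7 CPM at day 2 and 28.1, 28.5 and 23.4 CPM in fibroblasts. On chromosome 11, the window from 12100001 held 7 rises among 29 tested peaks, with 42.6, 42.8 and 42.9 CPM at day 21, against 22.7, 11.7 and 17.7 CPM at day 2. Its last rise, chr11 12199475-12201409, had a log2 fold change of 1.92 but of -0.04 from day 3 to day 14.

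Among the falls, the window from chr14 35300001 had 5 called peaks in a row, summing to 22.6, 25.4 and 39.4 CPM at day 21, against 64.0, 82.2 and 94.5 CPM at day 2. Fibroblasts were far lower there, at 8.85, 5.78 and 6.49 CPM, so day 21 still stood above them. All 53 tested peaks of that window together averaged 529 ± 110 CPM at day 21 and 517 ± 182 CPM at day 2 (SD, n = 3 each), which overlap. The window from chr16 45700001 had 5 falls, summing to 4.46, 4.77 and 4.08 CPM at day 21, against 18.6, 14.6 and 12.4 CPM at day 2, with 14.3, 13.4 and 17.3 CPM in fibroblasts. Over these 5 called peaks, day 2 was at the fibroblast level and day 21 under it in every library. All 40 tested peaks of the window had 107, 102 and 118 CPM at day 21 and 126, 166 and 153 CPM at day 2. Fibroblasts had 189, 173 and 202 CPM over them, above every day 2 library.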
